A study of Gallus gallus with 300 samples.

Results

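Among the supporting cells of the chicken utricle, 10 cells carried at least 2 of the 3 genes used as markers of the striola, TECTB, GATA3 and ISL1, and they are set here against 68 supporting cells that carried none. The series holds 300 single cells of the utricle sensory epithelium of wild type chickens at posthatch day 7, sorted into 5 plates and sequenced one by one with the Smart-seq2 method, which reads whole transcripts. Both sets of cells share this genotype, age and tissue, and no treatment is given in the labels. Epithelia of several utricles, 4 to 8 per experiment, were pooled before sorting, and the labels name no bird for any cell. All cells are therefore 1 sample, no difference was tested, and every interval below covers counting error only.

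The filter required 1000 genes and 50000 counts in a cell and removed 24 of the 300 cells. A kept cell was a supporting cell when the mean log2(CPM + 1) of GJB6, GJB2, SLC1A3, OTOGL and JAG1 was at or above that of the hair cell genes OTOF, CHRNA10, TMPRSS3, LRTOMT and CLIC5, where CPM are counts scaled to a cell total of 1000000. This gave 94 supporting cells, and the rest of the kept cells are called hair cells. A marker was taken as present at 10 CPM or more. Of the 94 supporting cells, 10 had at least 2 markers (10.6%, exact binomial 95% interval 5.22 to 18.7%), 16 had exactly 1 (17.02%) and 68 had none (72.3%), and the 16 cells with exactly 1 are left out of the comparison. The 10 cells were thus selected on their measured levels of these genes, and they are called striolar-marker cells below for that rule, since nothing in the data places a cell in the epithelium.

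The utricle is a vestibular organ that senses linear acceleration and gravity. Its hair cells sit among supporting cells, which hold the epithelium together, make the otolithic membrane and, in birds, give rise to new hair cells throughout life. The striola is a narrow central band of the epithelium in which hair cells, their nerve endings and the supporting cells differ from those of the surrounding extrastriola, and in which hair bundle polarity reverses. TECTB encodes beta-tectorin, a glycoprotein of the acellular membranes that cover inner ear sensory organs. GATA3 is a zinc finger transcription factor and ISL1 a LIM homeodomain transcription factor, and both act in inner ear development.

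The 10 cells did not carry the 3 markers evenly. All 3 were present in 3 cells, GATA3 with ISL1 in 4, TECTB with ISL1 in 2 and TECTB with GATA3 in 1. TECTB was found at 43747, 37861 and 11251 CPM in the 3 cells that had all of them, at 743, 728 and 511 CPM in another 3, and at 0 in the last 4. TECTB thus fell into a very high, a moderate and an absent level within the 10 cells. GATA3 lay between 27.6 and 2304 CPM in 8 cells and at 0 in 2, with a median of 142.1 CPM over the 10. ISL1 lay between 101.1 and 5098 CPM in 9 cells and at 0 in 1, with a median of 855 CPM. These values chose the cells and are given as a description.

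**Figure D1:**
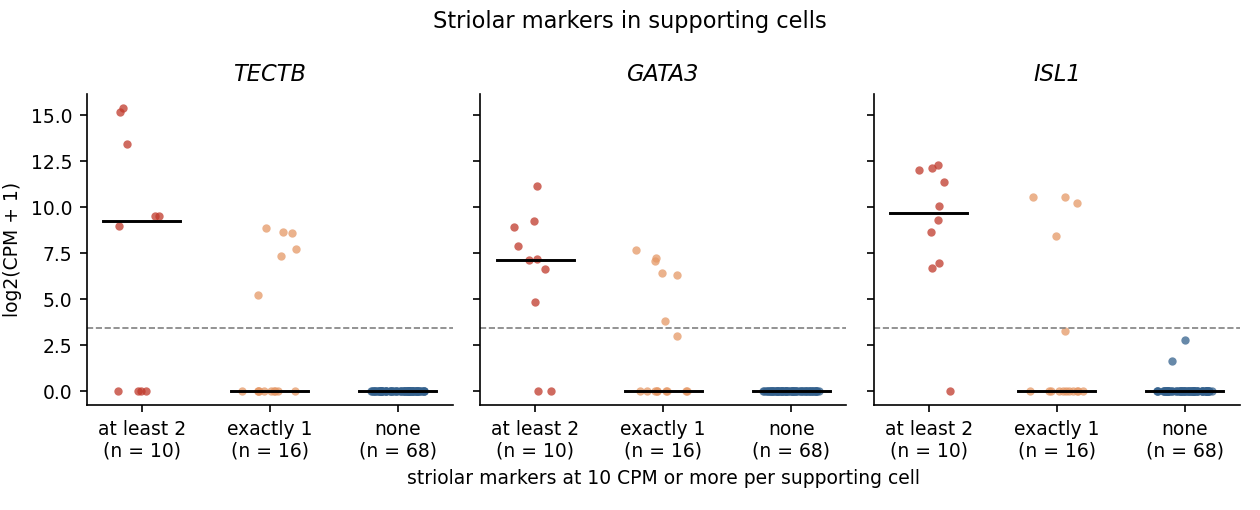
TECTB, GATA3 and ISL1 in each of the 94 supporting cells on a log2(CPM + 1) scale, by the number of markers a cell carried. Each point is a cell, black lines are medians and the dashed line is the threshold of 10 CPM. The 10 cells with at least 2 markers hold the only TECTB values above 10000 CPM, and the 68 cells with none lie at or near 0.

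Few cells were close to the threshold. The lowest TECTB value above it was 36.4 CPM and every other supporting cell was at 0. For GATA3 the nearest values were 12.9 CPM above and 7.06 CPM below, and for ISL1 101.1 CPM above and 8.61 CPM below. Single markers were common: 6 supporting cells had TECTB alone, 6 had GATA3 alone and 4 had ISL1 alone.

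The markers were also present in hair cells. TECTB reached 10 CPM in 12 of 94 supporting cells (12.8%) and in 17 hair cells (9.34%), and GATA3 in 14 (14.9%) and 12 (6.59%). ISL1 ran the other way, with 13 supporting cells (13.8%) and 42 hair cells (23.1%). At least 2 markers were found in 12 hair cells (6.59%, 3.45 to 11.2%), beside 10.6% of supporting cells, and the difference was not tested.

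Striolar-marker cells were spread unevenly over the plates. There were 4 on plate 2, 2 on plate 3, 3 on plate 4, 1 on plate 5 and none on plate 6, beside 11, 8, 21, 16 and 12 cells with no marker. Their share of a plate's supporting cells ran from 26.7% on plate 2 to 0 of 15 cells on plate 6, which allows a share of up to 20% when the limit is taken as 3 of the 15 cells. Plates 2 and 4 alone had at least 3 cells of both kinds, so a difference was taken over all cells and its sign was then required to be the same on these 2 plates. The birds behind each plate are not given, so plate and bird cannot be told apart.

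The supporting and hair cell genes of the rule chose the cells of both sets, so their levels are a description. Between the 2 sets the means of the supporting cell genes differed by less than 2-fold, while 1 striolar-marker cell went against its class. The connexin gene GJB6 had a median of 24594 CPM in striolar-marker cells (13.9 to 53236) and 23292 CPM in cells with none (7.82 to 50065). The log2 ratios of mean CPM were 0.04 for GJB6, -0.81 for the connexin gene GJB2, 0.22 for the glutamate transporter gene SLC1A3, 0.30 for OTOGL, an otogelin-like membrane protein, and 0.59 for the Notch ligand gene JAG1. The hair cell genes of the rule were close to 0, with OTOF at a mean of 2.32 CPM in striolar-marker cells and 17.3 CPM in cells with none. The exception, on plate 4, had 13.9 CPM of GJB6, 3.98 CPM of JAG1 and 0 counts of OTOGL, MATN4, OTOA, TECTA and SOX10, while GJB2, SLC1A3 and SPARC were present at 968, 121.5 and 1243 CPM. It also had 21417 CPM of STMN1, a microtubule-binding protein gene of dividing and neuronal cells, and 735 CPM of CDK1, 608 CPM of CKS2 and 508 CPM of CENPW, 3 genes of mitosis that were at 0 in the other 9 cells. Its difference between supporting and hair marker means was 4.62 log2 units, the lowest of the 10, all 5 hair cell genes of the rule were at 0, and the epithelial gene EPCAM was at 3094 CPM. Among cells with none that difference went down to 1.32 log2 units and OTOF up to 527.3 CPM. Those cells stayed in the means. The striolar-marker exception was thus not the only cell with a small difference. The exception was singled out after its values were seen, and values without it are given where it moves them.

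Striolar-marker cells had more genes per cell than cells with none. The median was 2752 genes (1486 to 3173) in striolar-marker cells and 1594 (1007 to 3887) in cells with none, and cells with exactly 1 marker had 2342.5. Total counts were closer, at a median of 363407 in striolar-marker cells and 301946 in cells with none. With every cell thinned to a depth of 50000 counts, the median was 2356.5 genes in striolar-marker cells and 1464 in cells with none. The ranges overlapped, but 67.8% of the 7054 measured genes were found in a larger share of thinned striolar-marker cells than of thinned cells with none. Genes per cell thus move with the comparison as a whole, and their part in the single results was not tested.

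**Figure D2:**
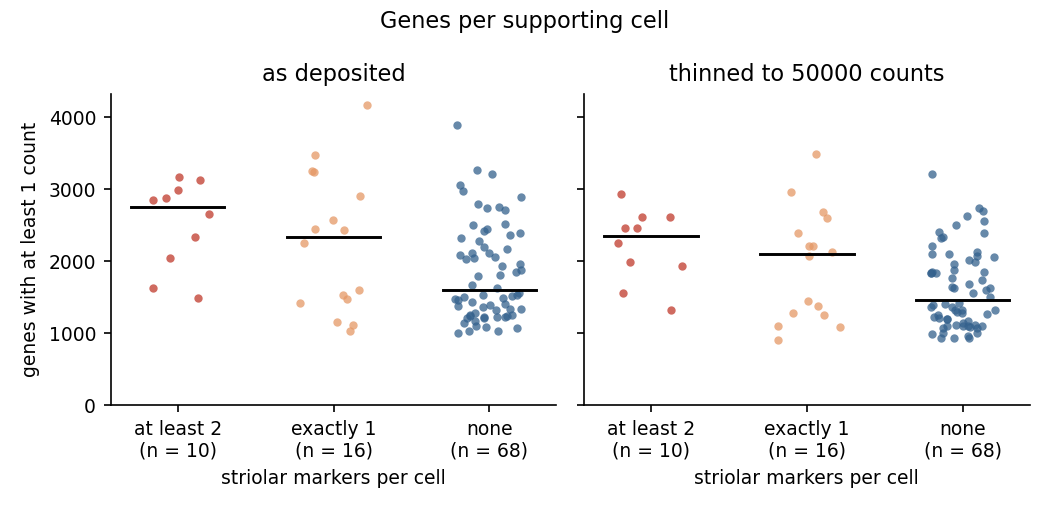
Genes with at least 1 count per supporting cell, by the number of striolar markers, as deposited (left) and after thinning each cell to 50000 counts (right). Each point is a cell and black lines are medians, which were 2752 genes in cells with at least 2 markers and 1594 in cells with none before thinning, and 2356.5 and 1464 after it.

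A gene was measured where it reached 10 CPM in at least 5 of the 78 compared cells, and 7054 genes were. The mean CPM was at least 2-fold higher in striolar-marker cells, with the same sign on plates 2 and 4, for 435 genes (6.17%), and at least 2-fold lower for 1618 genes (22.9%). With 10 cells on one side and 68 on the other, these counts do not weigh both directions alike. Of the 1618 lower genes, 531 had 0 counts in all 10 striolar-marker cells, as had 675 of the 7054 measured genes. Among the 654 genes that reached 10 CPM in at least 50% of cells with none, 52 were lower, and among the 1639 genes that did so in striolar-marker cells, 180 were higher. On the difference of mean log2(CPM + 1) the counts turned round, to 1260 higher and 323 lower, so the share of higher genes was 79.6% there and 21.2% on the ratio of means.

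The 12 genes with the highest ratios that reached 10 CPM in at least 50% of striolar-marker cells were TMEM120B, HECW1, ADSL, ACTR1A, ITGA8, C5H15orf52, PKIB, LRP4, CDK6, SPON1, PTCRA and IDNK. All 12 stayed at least 2-fold higher when any 1 of the 10 cells was left out. Large ratios and presence in at least 50% of the 10 cells chose these genes, so that outcome was largely fixed in advance. SPON1, which encodes the secreted matrix protein F-spondin, was found at 3211, 2523, 1669, 1054, 1042, 312 and 45.6 CPM in 7 striolar-marker cells and at 0 in 3. In the 68 cells with none, SPON1 had a median of 0 and a highest value of 3586 CPM, and 6 cells reached 10 CPM. Most striolar-marker cells thus held SPON1 and few other cells did, though the ranges overlapped. The mean was 986 CPM in striolar-marker cells and 119.8 CPM in cells with none, a log2 ratio of 3.03, which was 2.09 within plate 2 and 1.70 within plate 4. Summed over cells, SPON1 made up 1122 CPM in striolar-marker cells (exact Poisson 95% interval 1085 to 1159) and 110.1 in cells with none (105.8 to 114.5). It reached 10 CPM in 3 hair cells.

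LRP4 and ITGA8 encode cell surface receptors. LRP4, a lipoprotein receptor family member known as the agrin receptor of the neuromuscular junction, was at 1371, 838, 401, 283.1 and 110.6 CPM in 5 striolar-marker cells and at 0 in 5, and reached 10 CPM in 10 of 68 cells with none. Its means were 300.4 CPM in striolar-marker cells and 33.5 CPM in cells with none, a log2 ratio of 3.13. ITGA8, the alpha-8 integrin subunit, which binds fibronectin and nephronectin, was between 11.8 and 586 CPM in 5 striolar-marker cells, below 10 CPM in the others, and at 10 CPM or more in 5 of 68 cells with none. Its log2 ratio was 3.29. Both LRP4 and ITGA8 were at 10 CPM or more in 2 of the 10 cells. With each gene in 5 of the 10, this overlap does not show whether they mark separate cells.

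The largest ratio was that of TMEM120B, a transmembrane protein gene, with 295.5 CPM on average in striolar-marker cells and 0.78 CPM in cells with none. It was at 957, 639, 596, 534 and 230 CPM in 5 striolar-marker cells and at 0 in the other 5, while its highest value among cells with none was 33.4 CPM. PKIB, an inhibitor of protein kinase A, reached 10 CPM in 5 of 10 striolar-marker cells and 4 of 68 cells with none, with means of 208.8 and 22.5 CPM. CDK6, a kinase of the G1 phase, averaged 179.3 CPM in striolar-marker cells and 20.8 CPM in cells with none. Its log2 ratio was 7.70 within plate 2 but 0.32 within plate 4, under 2-fold.

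Of the remaining genes among the 12, ADSL, an enzyme of purine synthesis, reached 10 CPM in 6 of 10 striolar-marker cells and 5 of 68 cells with none (means 239.01 and 22.3 CPM). HECW1, a ubiquitin ligase, was found in 6 of 10 and 2 of 68 cells (means 184.6 and 12.8 CPM), and ACTR1A, a dynactin subunit, in 6 of 10 and 14 of 68 (149.1 and 14.2 CPM). IDNK, a gluconate kinase, had means of 274.6 and 34.1 CPM, PTCRA, named for the pre-T-cell receptor alpha chain, 40.9 and 4.25 CPM, and C5H15orf52, for which no role is given here, 214.9 and 22.96 CPM. Within plate 4 the log2 ratio of PTCRA was 0.94, under 2-fold. All 12 genes had cells at 0 counts on both sides, so for each of them the 2 sets of cells overlapped. In cells with exactly 1 marker the mean lay between the other 2 means for 7 of the 12, below both for 4, among them SPON1 and LRP4, and above both for 1. Since the ratio chose these 12 genes, their number in a cell is a description: striolar-marker cells had a median of 7 at 10 CPM or more (2 to 11), cells with exactly 1 marker 1 (0 to 6) and cells with none 1 (0 to 4).

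**Figure D3:**
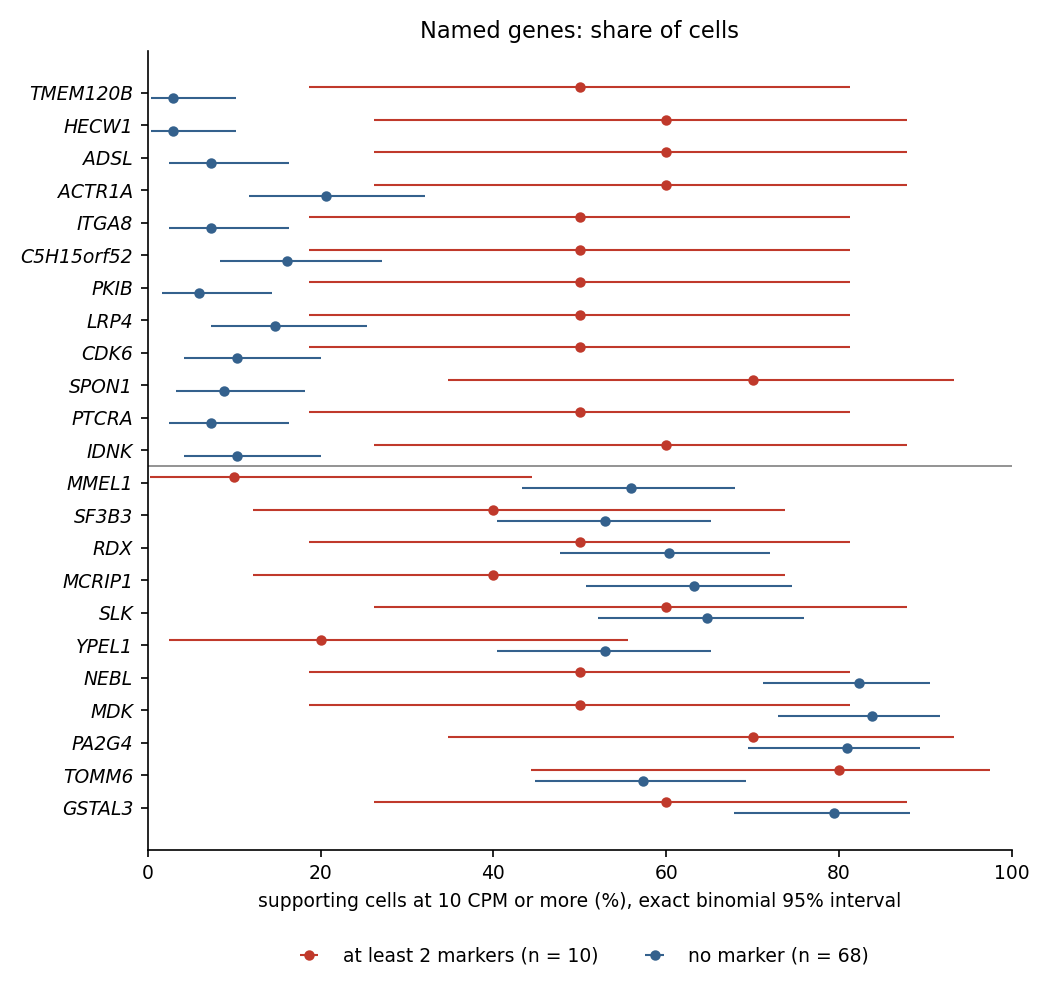
Share of cells at 10 CPM or more for the 12 genes with the highest log2 ratios (above the grey line) and 11 of the 12 with the lowest (below it), in striolar-marker cells (red, n = 10) and cells with no marker (blue, n = 68). Bars are exact binomial 95% intervals, which are wide for the 10 striolar-marker cells. SPON1 was found in 7 of 10 and 6 of 68 cells and MMEL1 in 1 of 10 and 38 of 68, and TOMM6 alone among the lower genes had the larger share in striolar-marker cells.

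The 12 genes with the lowest ratios, found in at least 50% of cells with none, were led by MMEL1, and 11 of them are described here. MMEL1, a metalloendopeptidase of the neprilysin family, was at 75.02 and 4.17 CPM in 2 striolar-marker cells and at 0 in 8. In cells with none it had a median of 35.8 CPM and a highest value of 3634 CPM, and it reached 10 CPM in 38 of 68. The means were 7.92 CPM in striolar-marker cells and 339.6 CPM in cells with none, a log2 ratio of -5.25. Most striolar-marker cells had no count of MMEL1, and 30 of the 68 cells with none were under 10 CPM.

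MDK encodes midkine, a heparin-binding growth factor. It was at 1375, 818, 286.3, 125.3 and 111.03 CPM in 5 striolar-marker cells and at 0 in 5, while 57 of 68 cells with none had it (median 535 CPM, highest 4468). The means were 271.6 and 905 CPM, a log2 ratio of -1.73, and without the cell that went against its class the striolar-marker mean was 148.995 CPM and the ratio -2.60. With all 10 cells the ratio was -4.12 within plate 2 and -0.62 within plate 4. MDK was close to even between supporting cells with and without TECTB, with a log2 ratio of 0.01, and 5 of the 6 cells with TECTB alone had it.

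The rest of the lower genes had different roles. RDX, or radixin, which ties actin to the plasma membrane, averaged 56.5 CPM in striolar-marker cells and 306 CPM in cells with none, and NEBL, the actin-binding nebulette, 288.7 and 1014 CPM. SLK, a kinase of the STE20 family, averaged 167.9 and 748 CPM, and SF3B3, a splicing factor subunit, 44.04 and 517.5 CPM. MCRIP1, YPEL1, PA2G4, TOMM6 and GSTAL3 had log2 ratios of -2.41, -2.07, -1.71, -1.63 and -1.62. Single cells carried part of several of these means. Without its highest cell the ratio of NEBL was -3.87 in place of -1.81. In the same way RDX came to -3.32 in place of -2.42, and SLK to -2.98 in place of -2.15. The ratio of YPEL1, without the cell that went against its class, was -5.34. Within plate 4 the ratios of YPEL1, GSTAL3 and NEBL were under 2-fold, at -0.32, -0.83 and -0.88. Within plate 2 that of TOMM6 was -0.62. All 11 genes again had cells at 0 on both sides, and in cells with exactly 1 marker the mean lay between the other 2 means for 8 of them and above both for 3.

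A second ordering, by the share of thinned cells with a count, was chosen after the values were seen and is less open to a single high cell. It is open to genes per cell, since 67.8% of all measured genes had the larger thinned share in striolar-marker cells. The cells counted below are those at 10 CPM or more without thinning. MRPS33, a mitochondrial ribosome protein gene, had 10 of 10 striolar-marker cells at 10 CPM or more (75.2 to 1180 CPM) and 20 of 68 cells with none. UBE2V2, a ubiquitin-conjugating enzyme variant, had 9 of 10 and 14 of 68, TCTN1, a protein of the ciliary transition zone, 8 of 10 and 11 of 68, and HSDL1, a dehydrogenase-like protein, 8 of 10 and 13 of 68. At the other end VDAC1, a channel of the outer mitochondrial membrane, had 0 counts in all 10 striolar-marker cells. It reached 10 CPM in 25 of 68 cells with none and 11 of 16 cells with exactly 1 marker (means 270.7 and 528.5 CPM). The mean of cells with none was 286.7-fold the floor of 3 counts over the summed total of the 10 cells. That is not a lower bound, since the exact Poisson interval of the 10 cells reaches 1.16 CPM, above the floor of 0.944 CPM. By counting error 0 of 10 cells allows a share of up to 30.8%, against 36.8% of cells with none. The difference was not tested. HIF1A, the hypoxia-inducible factor, had 1 of 10 and 32 of 68.

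The striolar-marker cells were also split by TECTB, again after the values were seen. SPON1 reached 10 CPM in all 6 striolar-marker cells with TECTB and in 1 of the 4 without it. Over all supporting cells it did so in 7 of 12 with TECTB and 8 of 82 without, but in only 1 of the 6 cells in which TECTB was the sole marker. Among the striolar-marker cells with and without TECTB, PROX1 was found in 4 of 6 and 2 of 4 and BMP7 in 3 of 6 and 1 of 4, while ITGA8 and PKIB were each found in 2 of 6 and 3 of 4. Over all supporting cells BMP7 was found in 3 of 12 and 7 of 82, and in 0 of the 6 cells with TECTB as sole marker, and PROX1 in 4 of 12, 19 of 82 and 0 of 6. HECW1 had a log2 ratio of -0.15 between cells with and without TECTB and of 4.36 between the 7 cells with both GATA3 and ISL1 and the 74 with neither.

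**Figure D4:**
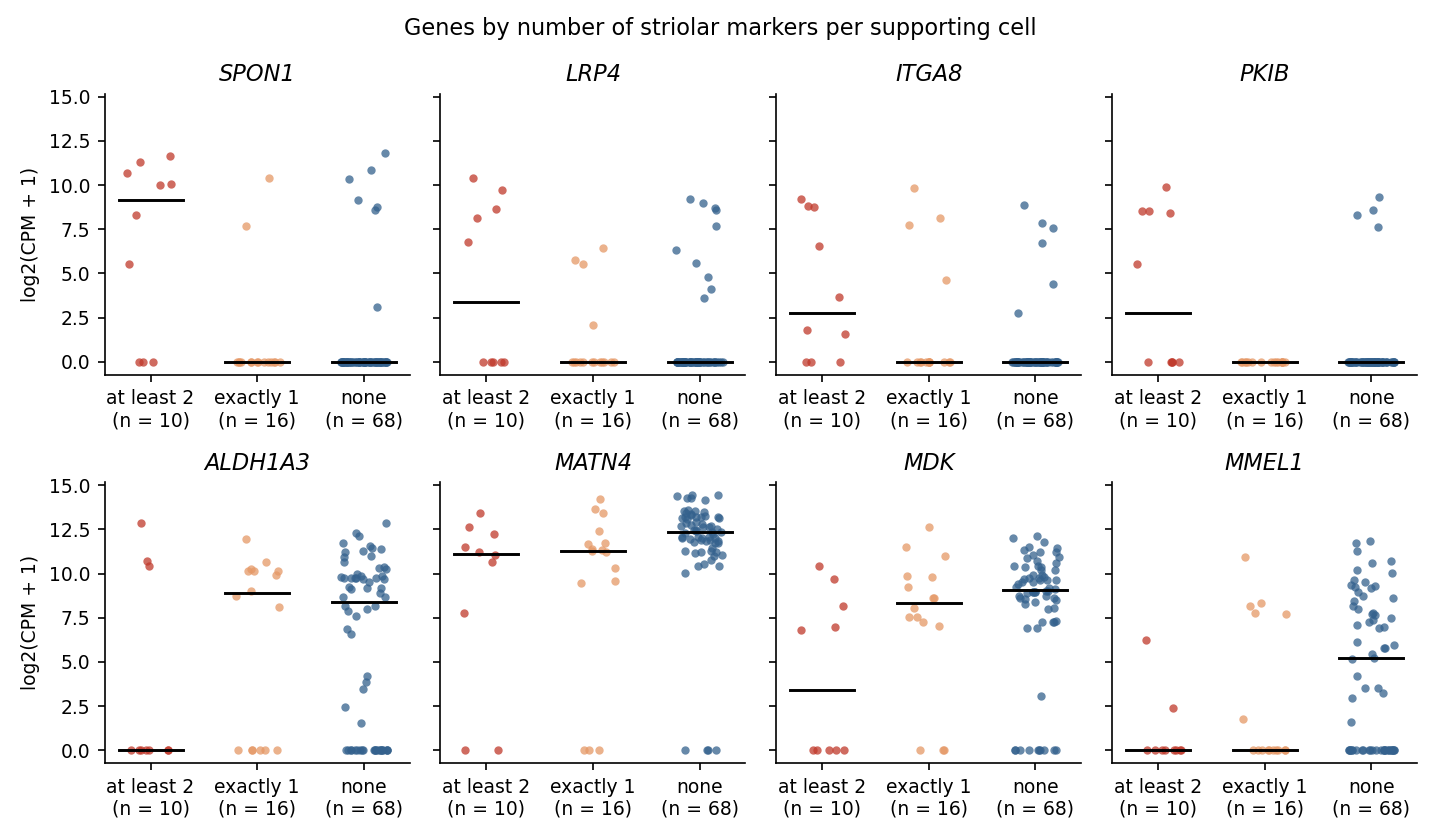
Level of 8 genes in each supporting cell on a log2(CPM + 1) scale, by the number of striolar markers. Each point is a cell and black lines are medians; the genes were picked for display after their values were seen. SPON1 is above 0 in 7 of 10 cells with at least 2 markers and at 0 in most others, MATN4 is high in nearly all cells, and ALDH1A3, MDK and MMEL1 are at 0 in 7, 5 and 8 of the 10.

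Other genes known for the striola or extrastriola were mostly too low to be measured. Of 10 further striolar genes, 2 were measured, the Notch-modifying enzyme gene LFNG (330.0 CPM in striolar-marker cells and 287.1 CPM in cells with none) and PRDM16 (29.8 and 25.5 CPM), and neither passed 2-fold. LFNG was found in 8 of 10 and 39 of 68 cells. PRDM16 was found in 1 of 10 and 10 of 68, and without that 1 cell, at 298.1 CPM, its ratio was -4.73. For both genes the sign differed between plates 2 and 4. Of 10 extrastriolar genes, 4 were measured, and 2 had positive and 2 negative ratios. Beside 22.9% lower over all measured genes, 1 of the 4 was lower, which is near that share. That was SFRP2, a secreted Wnt antagonist, with 10.4 CPM in striolar-marker cells and 67.8 CPM in cells with none (1 of 10 and 11 of 68 cells). The medians of the extrastriolar genes were -0.69 on the ratio of means and -0.37 on the difference of mean log2 values, beside -0.21 and 0.42 over all measured genes. TECTA, which is on the extrastriolar list and encodes the alpha-tectorin of the same membranes as TECTB, reached 10 CPM in 9 of 10 striolar-marker cells and 45 of 68 cells with none, with means of 391 and 321 CPM and a log2 ratio of 0.28.

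ALDH1A3, which makes retinoic acid, split the 2 measures of difference. It reached 10 CPM in 3 of 10 striolar-marker cells (30.0%, 6.67 to 65.2%) and 44 of 68 cells with none (64.7%, 52.2 to 75.9%). The 3 cells had 7564, 1694 and 1372 CPM, so that the means were 1063 CPM in striolar-marker cells and 863 CPM in cells with none, and the log2 ratio was 0.30. The difference of mean log2(CPM + 1) was -2.75. ALDH1A3 was at 0 in all 3 cells with very high TECTB, but 5 of the 6 cells with TECTB alone had it. Of 6 measured genes of retinoic acid handling none was called in either direction, beside 6.17% higher and 22.9% lower of all measured genes. The medians of the 6 were -0.18 and -0.07 on the 2 scales. STRA6, the retinol-binding protein receptor, was found in 2 of 10 and 29 of 68 cells, but its sign differed between plates 2 and 4.

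Matrix genes of the otolithic membrane were strongly present on both sides. Of 7 measured genes, 0 were higher and 1 was lower, beside 6.17% and 22.9% of all measured genes. The lower one was MATN4, a matrilin, with a median of 2246 CPM in striolar-marker cells (0 to 10874) and 5225 CPM in cells with none (0 to 22439). Its log2 ratio of -1.10 was -0.42 within plate 2 and -0.23 within plate 4, and became -0.94 over all plates without the cell that went against its class, which had none of it. OTOP1, a proton channel needed for otoconia, was found in 5 of 10 and 49 of 68 cells (means 1255 and 1653 CPM, log2 ratio -0.40). OTOL1, OTOG, SPARC and OTOA had ratios between -0.59 and 0.20.

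The counts of list members that follow stand beside 6.17% higher and 22.9% lower over all measured genes. Members at 0 in all 10 cells were measured through the cells with none alone. By counting error 0 of 10 cells allows a share of up to 30.8%. Each such member named below was found in a smaller share of cells with none, so its absence cannot be told from sampling. Of 21 list members called higher, 10 stayed past 2-fold when any 1 of the 10 cells was left out. Of 73 called lower, 64 did. Leaving out a cell can raise a mean only slightly, and members at 0 in all 10 cells do not move. The count of 64 was thus largely fixed in advance and cannot be set beside the 10 higher ones.

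Notch genes were found more often in striolar-marker cells, as were most genes. Of 17 measured, 15 had the larger share of thinned cells there, 1 was called higher and 1 lower, and the medians were 0.45 and 1.39. HES5, a Notch target, was found in 10 of 10 striolar-marker cells and 48 of 68 cells with none, with medians of 5592 and 1921 CPM and a log2 ratio of 0.45. NRARP, a Notch target and feedback inhibitor, was called higher with 5 of 10 and 16 of 68 cells and means of 30.0 and 9.31 CPM. RBPJ, the DNA-binding partner of Notch, had 0 counts in the 10 cells and was found in 6 of 68.

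In the Wnt list 20 genes were measured, 1 was higher and 6 were lower (3 of the 20 at 0 in the 10 cells), with medians of -0.84 and -0.06, beside 6.17% higher and 22.9% lower of all measured genes. LGR5, a receptor for R-spondins that marks some inner ear supporting cells in the mouse, was the higher one. It reached 10 CPM in 3 of 10 striolar-marker cells and 6 of 68 cells with none, with means of 166.3 and 36.8 CPM and a log2 ratio of 2.15. That call rested on 1 cell at 1218 CPM, without which the mean was 49.4 CPM and the ratio 0.41. WNT7A, a Wnt ligand, had 0 counts in all 10 striolar-marker cells and reached 10 CPM in 17 of 68 cells with none (25%). The mean of cells with none was 65.2-fold the floor of 3 counts. However, 0 of 10 cells allows a share of up to 30.8% by counting error, above that 25%, and the difference was not tested. KREMEN1, a Dickkopf receptor, was called lower in mean, at 111.2 against 280.7 CPM, yet was found in 6 of 10 and 36 of 68 cells. Of 14 measured planar polarity genes, 0 were higher and 3 were lower, among them VANGL1 (7.91 and 38.1 CPM, but found in 2 of 10 and 12 of 68 cells).

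Of 15 measured FGF pathway genes, 1 was higher and 3 were lower, with medians of 0.50 and 1.16. The receptor FGFR1 was the higher one and was found in 7 of 10 striolar-marker cells and 20 of 68 cells with none, with means of 237.8 and 115.4 CPM and a log2 ratio of 1.04, or 0.78 without the highest cell. Its ratio was 2.38 within plate 2 and 0.25 within plate 4. The ligands FGF3 and FGF9 had 0 counts in the 10 striolar-marker cells and were found in 12 and 5 of 68 cells with none (17.6% and 7.35%). Both shares are below the 30.8% that 0 of 10 cells allows, and the differences were not tested.

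In the BMP and TGF-beta list 26 genes were measured, 2 were higher and 9 lower (5 of the 26 at 0 in the 10 cells), with medians of -1.27 and 0.07, beside 6.17% higher and 22.9% lower of all measured genes. The ligand gene BMP7 had 996, 273.7, 171.2 and 26.5 CPM in 4 striolar-marker cells and was under 10 CPM in 6, against 4 of 68 cells with none. Its means were 147.01 and 7.97 CPM, a log2 ratio of 4.04, and 52.7 CPM and 2.58 without the cell that went against its class, which was the highest. SMAD7, an intracellular inhibitor of the pathway, was the other higher gene (60.4 and 7.08 CPM, 3 of 10 and 3 of 68 cells). BAMBI, a decoy receptor, was found in 1 of 10 and 18 of 68 cells (5.01 and 184.5 CPM), and CHRDL1, a secreted BMP antagonist, in 2 of 10 and 23 of 68 (19.02 and 177.1 CPM).

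Of 42 measured developmental transcription factor genes, 5 were higher and 11 lower, near the 22.9% over all measured genes, with medians of -0.03 and 0.32. PROX1, a homeobox factor, was at 10 CPM or more in 6 of 10 striolar-marker cells and 15 of 68 cells with none, with means of 236.9 and 71.7 CPM and a log2 ratio of 1.71. Without the highest cell, at 1390 CPM, its mean was 108.8 CPM and the ratio 0.59, under 2-fold. POU3F3 was found in 5 of 10 and 3 of 68 cells (20.0 and 2.31 CPM), and DLX5 in 4 of 10 and 7 of 68 (34.7 and 8.50 CPM). SOX4 and SOX11 were the other 2. SOX11 was under 2-fold without its highest cell, with a ratio of 0.58, and SOX4 was low on both sides at 9.35 and 0.67 CPM. PAX2, a paired box factor of the developing ear, had 0 counts in all 10 cells and was found in 17 of 68 (25%). The mean of cells with none was 94.98-fold the floor, but 0 of 10 cells allows a share of up to 30.8%, above that 25%. EYA1 and EYA4 were called lower in mean, at 77.8 against 283.8 CPM and 64.3 against 152.8 CPM, yet were found in 7 and 6 of the 10 cells and in 34 and 34 of the 68.

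Of 48 measured collagen, laminin and integrin genes, 4 were higher and 10 lower, with medians of -0.44 and 0.19. The 4 higher ones were receptor and laminin subunits: ITGA8, the integrin beta-1 subunit ITGB1 (390 and 151.9 CPM, 6 of 10 and 20 of 68 cells), the alpha-6 subunit ITGA6 (462 and 188.3 CPM, 6 of 10 and 22 of 68) and the laminin subunit LAMA2 (178.9 and 80.1 CPM, 5 of 10 and 10 of 68). Without the highest cell of each, the ratios of ITGB1, ITGA6 and LAMA2 were 0.79, 0.60 and 0.27, under 2-fold, and that of ITGA8 was 2.77. The integrin subunit ITGB4 ran the other way, at 6.28 CPM in striolar-marker cells and 99.4 CPM in cells with none. COL11A1 had 186.6 and 406 CPM and COL5A2 10.1 and 117.9 CPM. ADAMTS1, a matrix protease, had 0 counts in the 10 cells and was found in 9 of 68.

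Among 41 measured cytoskeleton genes, 3 were higher and 7 lower. PLS1, a plastin that bundles actin, averaged 290 CPM in striolar-marker cells and 45.2 CPM in cells with none, while the related PLS3 averaged 1.77 and 136.005 CPM and was found in 1 of 10 and 23 of 68 cells. MYL12B, a myosin light chain, was found in 9 of 10 and 46 of 68 cells (1178 and 547 CPM), with a ratio of 1.10 that was 0.82 without its highest cell. The higher mean of STMN1, at 2379 against 411 CPM, rested on the cell that went against its class, and without it the mean was 263.5 CPM and the log2 ratio -0.64 in place of 2.53. KRT7, a simple epithelial keratin, was lower at 754 against 1796 CPM. Of 29 junction and cadherin genes 1 was higher and 4 were lower.

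Of 11 measured ion and water transport genes, 0 were higher and 5 lower, beside 6.17% and 22.9% of all measured genes. The medians were -0.30 and 0.74, and 8 of the 11 had the larger share of thinned cells in striolar-marker cells. The water channel gene AQP4 was found in 1 of 10 striolar-marker cells and 14 of 68 cells with none, and the bicarbonate cotransporter gene SLC4A4 in 1 of 10 and 15 of 68. ATP1B1, a beta subunit of the sodium pump, had 0 counts in the 10 cells and was found in 9 of 68. Of 10 measured cell cycle genes CDK6 was higher, and 2 were lower, CDKN1C, a cyclin-dependent kinase inhibitor (2.28 and 10.8 CPM), and TYMS, a nucleotide synthesis enzyme (19.7 and 183.3 CPM). The ratio of CDK6 was 0.32 within plate 4.

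Genes of developing hair cells had a summed level with a median of 283.2 CPM in striolar-marker cells and 83.5 CPM in cells with none. Of 8 measured, 2 were higher, SOX4 and SOX11, and 0 were lower, with medians of 1.38 and 0.73. The cell cycle gene CCND1 was at means of 187.7 and 243.4 CPM (8 of 10 and 31 of 68 cells) and HES6, a Hes family factor, at 109.4 and 46.9 CPM (2 of 10 and 3 of 68). The sign of HES6 differed between plates 2 and 4, and its striolar-marker mean was 66.9 CPM without the cell that went against its class. ATOH1, the transcription factor that starts hair cell differentiation, reached 10 CPM in 2 of 10 striolar-marker cells and 8 of 68 cells with none, with means of 12.8 and 7.10 CPM and a ratio of 0.77 that was -0.66 without its highest cell. The Notch ligand gene JAG2 was found in 2 of 10 and 5 of 68 cells (33.6 and 6.79 CPM), and its sign differed between plates 2 and 4. DLL1, another Notch ligand gene, had a log2 ratio of 1.74 that became -3.02 without the cell that went against its class.

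Immediate early and stress genes, which respond within minutes to dissociation and other stimuli, were on in both sets. Of 34 measured, 0 were higher and 8 lower, near the 22.9% over all measured genes, with medians of -0.10 and 0.65. EGR1 was found in 10 of 10 striolar-marker cells and 58 of 68 cells with none, with medians of 6054 and 2315 CPM and a log2 ratio of 0.85. ATF3 was found in 4 of 10 (interval 12.2 to 73.8%) and 22 of 68 (32.4%, 21.5 to 44.8%).

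Markers of other cell types were checked in both sets. The summed level of 36 hair cell genes had a median of 1204 CPM in striolar-marker cells (91.01 to 2977) and 672 CPM in cells with none (0 to 3839), against 29207 CPM in hair cells, and 26 of the 36 were at 0 in all 10 striolar-marker cells. The 12 stromal genes, COL1A1 and DCN among them, were at 0 in all 10 cells and at a highest sum of 1.77 CPM in cells with none. Summed glial genes had medians of 523 and 351 CPM (8 of 13 at 0 in the 10 cells), with SOX10, which supporting cells also express, at means of 320 and 327 CPM. The highest glial sum was 1356 CPM in striolar-marker cells and 34284 CPM in cells with none. Summed neuron genes had medians of 266.5 and 7.70 CPM (9 of 11 at 0 in the 10 cells), carried by NEFL and ELAVL4, and summed immune genes 191.6 and 0 CPM (5 of 9 at 0), with CD74 at means of 217.5 and 133.3 CPM. Endothelial and melanocyte sums had a median of 0 CPM in both sets, and dark cell genes, of which 8 of 11 were at 0 in the 10 cells, had medians of 85.3 and 3.74 CPM. The highest dark cell sums were 582.4 and 6934 CPM. No cell was removed for these sums in the main comparison, and the part of other cell types in the results was not tested. At least 1 of 6 W-linked genes, which in birds are found only in females, had a count in 8 of 10 striolar-marker cells (interval 44.4 to 97.5%) and 49 of 68 cells with none (72.1%, 59.9 to 82.3%), and the birds behind the cells are not given.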

How the data were processed

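Each of the 300 cells has a deposited file of expected counts per gene symbol, unnormalised, made from Smart-seq2 libraries that, per the labels' protocols, had 22 amplification cycles. They carried no molecular identifiers. The submitters' processing notes name FastQC, STAR and RSEM, with no version or role, and the sources used here do not name a genome build. The 13643 rows of a file were summed to 13631 symbols and scaled to CPM by the cell's total. Kept cells had 66490 to 1234010 counts. Reads from overlapping genes or near-identical copies may have been shared between symbols.

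Cells with at least 2 markers were compared with cells with none as the log2 ratio of mean CPM after 1 CPM was added to both means, so ratios of low genes are understated. The plan was to average first within and then over plates, if 3 plates held 3 or more cells of each kind, and since only plates 2 and 4 did, means are over all cells. A gene was called higher or lower at a log2 ratio of at least 1 in size with the same sign on both plates. Named genes were the 12 highest and 12 lowest ratios outside the rule that reached 10 CPM in at least 50% of cells of the higher side and had the same sign on both plates, in the difference of mean log2(CPM + 1) and in the share of thinned cells with a count, and 1 of the 12 lowest is not reported here. From each list the members with the largest ratios and those that went the other way were also named. Thinning drew whole counts, after rounding, down to 50000 per cell. Shares have exact Clopper-Pearson intervals and sums exact Poisson intervals, both at 95%. A floor is 3 counts over the summed total of the group, 0.944 CPM for the 10 cells. No animal is named, so no test was made. Doublets were not searched for, since cells were sorted singly.

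The members, the gene lists and the rules were chosen with earlier results of these data known. Alternatives were other pseudocounts, scalings, filters, marker thresholds and class rules, each plate left out, each of the 10 cells left out in turn, and cells with none limited to those with at least as many genes as the lowest of the 10. The last 2, the cell that went against its class, the split by TECTB and the ordering by share were added after the data were seen. The script was tested on simulated data. Python 3.11.15, numpy 2.4.6, pandas 2.3.3 and scipy 1.17.1 were used.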

Additional observations from a re-analysis of the deposited data

Results flagged for a closer look

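Among 29 sets of values over the 10 striolar-marker cells or the plates, 2 held a value far from the others by Dixon's ratio. Chance flags about 1 in 20 sets of normally distributed values. Sets with cells at 0 are not of that kind, so this rate is a rough guide. ISL1 had log2(CPM + 1) of 0 in 1 of the 10 cells, which had TECTB and GATA3, while the other 9 had at least 101.1 CPM. Because ISL1 helped to choose the cells, and the rule allows 1 marker to be absent, this flag is a description only. MMEL1 had 6.25 in 1 cell of plate 4, while 8 of the 10 were at 0.

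At least 2 of the 3 markers were also present in cells outside the comparison. They were found in 6.59% of hair cells (12 cells) and in 8.33% of the cells that the filter removed (2 of 24), beside 10.6% of supporting cells.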

How the results depend on the processing

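The share of supporting cells with at least 2 markers ran from 7.59% without plate 2 to 15.3% with a filter of 1500 genes per cell, and the median number of genes was larger in striolar-marker cells than in cells with none in every alternative that gave one. The counts of 435 higher (6.17%) and 1618 lower genes (22.9%) differed with the scale, with the cells and with the plates on which the sign was required. On the difference of mean log2(CPM + 1), 17.9% of measured genes were higher and 4.58% lower. The percentage higher was 3.37% with a marker threshold of 5 CPM, 12.8% with 50 CPM, 13.4% with a filter of 1500 genes per cell, 14.7% for GATA3 and ISL1 both against neither and 3.78% for TECTB alone. It was 12.9% without plate 2 and 16.01% without plate 4, and 36.7% were lower without plate 2. The plates with enough cells of both kinds also changed, and the sign check with them. The sign was required on plate 2 alone with 50 CPM, with 1500 genes, for GATA3 and ISL1 both, and without plate 4. Without plate 2 it was required on plate 4 alone, and for TECTB alone on plates 4 and 5. With 5 CPM it was required on plates 2, 4 and 5. The part of this check in the percentages was not tested. Requiring 10 CPM in at least 10 cells left 825 lower genes of 4563 measured. Leaving out each of the 10 cells gave 5.43 to 13.1% higher. The values of 884, 923 and 912 higher genes came without each of the 3 cells of plate 4, when the sign was required on plate 2 alone. With median-of-ratios size factors there were 601 higher and 1477 lower genes, and with cells with none limited to those with at least as many genes as the lowest of the 10 there were 442 and 1335.

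Of 23 named genes, 21 kept their sign in all 31 alternatives and 12 stayed past 2-fold. These genes were chosen for large ratios with the same sign in the difference of mean log2(CPM + 1), itself an alternative. Their kept signs are therefore partly built into the choice. NEBL came to -0.19, RDX to -0.25, GSTAL3 to -0.27, SLK to -0.34 and PTCRA to 0.60, and TMEM120B, at 7.38, came to 2.00. HECW1 and MDK turned round for TECTB alone, at -0.15 and 0.0072, and the cause was not tested. The median over all measured genes moved between -0.43 and 0.42. The medians of the Wnt and extrastriolar lists were below 0 in all 31 alternatives, and that of all measured genes was so in all but 2. The extrastriolar median rests on 4 measured genes, of which 2 had positive ratios. The median of retinoic acid handling had the other sign in 9 alternatives and that of planar polarity in 8. Averaging within plates gave no separate value under the main rule, since 2 plates qualified. At a marker threshold of 5 CPM, plates 2, 4 and 5 qualified, and the means of that alternative were averaged within plates. No paired analysis was possible because the labels give no animal and there is 1 group of cells. Over the 10 cells together, the floor of 3 counts comes to 0.944 CPM.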
